A study of Mus musculus with 3 samples.

Results

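Hyaluronan is a long polysaccharide of the extracellular matrix, spun out at the plasma membrane by hyaluronan synthases, organised by binding proteins, sensed by surface receptors and broken down by hyaluronidases. The 9 genes described here were chosen by name from these roles, namely the synthases Has1, Has2 and Has3, the hyaluronidases Hyal1 and Hyal2, the receptors Cd44 and Hmmr, and the matrix binders Tnfaip6 and Vcan. All 9 names were found as single rows among the 43472 rows of the table, of which 20322 had reads. RNA-seq was run on primary fibroblasts from tail tips of C57BL/6 mice, grown as monolayers, scratched, and exposed for 5 h to micrograft (MG, the soluble extract of mouse skin biopsies, diluted 1 : 10 in medium) and at the same time to PD0325901 at 1 μM, which blocks the kinase MEK upstream of ERK. The labels number the 3 libraries as replicates 1 to 3 of a single condition, MG + PD0325901, so wounding, MG and inhibitor were shared by every culture. The labels do not say whether the cultures came from different mice. Other conditions were not analysed here, and the results below are levels and their spread between replicates, without a test between conditions.

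Hyaluronan-rich matrix is laid down in early wounds, where it holds water, loosens cell contacts and gives migrating fibroblasts a substrate. CD44 is its main surface receptor. The protein TSG-6, encoded by Tnfaip6, moves heavy chains of inter-alpha-inhibitor onto the polymer and thereby cross-links it, while the proteoglycan versican, encoded by Vcan, binds it through a link module. RHAMM, encoded by Hmmr, was named as a hyaluronan receptor and also acts inside dividing cells on the mitotic spindle.

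The values are normalized counts, that is, reads per gene divided by a size factor for each library. Reads recovered from them summed to between 17244505 and 27037783 per library, and 3 reads, taken as the upper limit where none was counted, corresponded to between 2.11 and 3.56 normalized counts. Counting intervals below are exact 95% Poisson intervals and cover counting error only. Of 10 fibroblast markers, S100a4 with the highest mean per kb, 10 reached 10 normalized counts in each of the libraries, against 1 of 8 keratinocyte, 2 of 9 leukocyte and 1 of 6 endothelial markers, the last being Egfl7 with between 49.8 and 69.5 normalized counts. Krt5, Krt14, Krt15 and Krt1 were at or below 2.37 normalized counts, Ptprc at or below 1.74 and Cdh5 at or below 1.19 in each library. The endothelial marker Tek was uneven, with 6.95, 185 and 2.37 normalized counts in replicates 1, 2 and 3. Replicate 2 was more than 2-fold below both other libraries for 5 of 7 tendon and cartilage markers (Col2a1, Comp, Scx, Fmod and Acan) and for the fibroblast markers Lum and Dcn. The same held for 4.87% of all genes with a mean of at least 10. Col2a1 had 11538, 229 and 833 and Lum had 5073, 289 and 1164 normalized counts in replicates 1, 2 and 3. For Col2a1 and Lum, replicate 1 was also more than 2-fold above both others, as it was for 2.29% of all such genes. The values of Acan rested on 5, 0 and 31 reads. The other tendon and cartilage markers, Sox9 with 171, 149 and 117 and Tnmd with 124, 127 and 107 normalized counts, had no such drop.

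The promoters of the 3 genes whose level differed most between the replicates are shown before their values. RefSeq (GRCm38.p6) gave a promoter for 7 of the 9 genes, with no entry for Has2 and Has3, and the 250 bases before the RefSeq start were searched. GENCODE places the start of Tnfaip6 104 bases and that of Has1 17 bases further upstream, so for these genes only the bases before the GENCODE start are printed, in the direction of transcription. The GENCODE start of Hmmr lies 15 bases downstream of the stretch shown. Positions below count back from the RefSeq start. Capitals mark matches on either strand to the 7 motifs searched, which were the AP-1 site TGAGTCA, the cAMP response element TGACGTCA, the NF-kB consensus, the CCAAT box, the cell cycle homology element TTTGAA, the TATA box (written TATAAA) and the GC box GGGCGG.
Has1 (chr17:17855206-17855438, minus strand): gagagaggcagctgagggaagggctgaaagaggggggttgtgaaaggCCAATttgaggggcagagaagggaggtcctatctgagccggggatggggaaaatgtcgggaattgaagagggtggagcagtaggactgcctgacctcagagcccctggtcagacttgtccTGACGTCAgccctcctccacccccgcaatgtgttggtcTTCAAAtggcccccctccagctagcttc
Tnfaip6 (chr2:52037863-52038008, plus strand): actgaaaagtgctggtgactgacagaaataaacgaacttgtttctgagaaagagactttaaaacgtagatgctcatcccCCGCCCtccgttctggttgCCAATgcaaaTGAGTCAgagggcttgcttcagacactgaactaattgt
Hmmr (chr11:40733438-40733687, minus strand): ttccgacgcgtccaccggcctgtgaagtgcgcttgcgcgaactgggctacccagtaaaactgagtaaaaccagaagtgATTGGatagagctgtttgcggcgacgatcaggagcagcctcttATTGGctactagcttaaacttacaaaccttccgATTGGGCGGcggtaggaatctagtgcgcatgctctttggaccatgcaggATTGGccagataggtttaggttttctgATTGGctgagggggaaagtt

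The Has1 promoter held the cAMP response element at positions -83 to -76, a CCAAT match at -203 to -199 and the letters of the cell cycle element at -45 to -40. TGACGTCA was present in 1.55% of 32851 promoters of the same length, CCAAT in 33.8% and TTTGAA in 15.99%. The Tnfaip6 promoter held the AP-1 site TGAGTCA at positions -142 to -136, which was found in 4.46% of all promoters and in no other of the 7 hyaluronan promoters. It also held CCAAT at -152 to -148 and a GC box at -171 to -166. A further CCAAT match at -81 to -77 lies within the GENCODE gene and is not printed. In the Hmmr promoter, CCAAT was matched 5 times, each as its reverse complement, and at least 5 matches were present in 0.213% of all promoters. Its GC box at -93 to -88 overlaps the CCAAT match at -96 to -92, and the GC box was present in 32.7% of all promoters. The Hyal2 promoter of RefSeq held the NF-kB consensus, present in 3.90% of promoters. Its searched bases, chromosome 9, 107568913 to 107569162, lie within the GENCODE gene, which starts at 107567945. None of the 7 promoters held TATAAA, present in 12.4%. The Cd44 promoter matched none of the 7 motifs. These matches describe letters and were not tested as binding sites.

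Of the synthases, Has1 and Has2 were both expressed and Has3 was near the limit of detection. Has1 (chromosome 17, 17843323 to 17855205, minus strand, GRCm38), one of the 3 membrane synthases, had 293, 271 and 1101 normalized counts in replicates 1, 2 and 3. Replicates 1 and 2 had overlapping counting intervals, from 263 to 327 and from 244 to 299, whereas replicate 3 spanned 1031 to 1174. The mean was 555 ± 473 (SD, n = 3), and 282 without replicate 3. Has2 (chromosome 15, 56665627 to 56694539, minus strand), the main synthase of mesenchymal cells and of the developing embryo, had 256, 340 and 213 normalized counts, averaging 270 ± 64.6 (SD, n = 3). Its order was the opposite of Has1, with replicate 2 highest and replicate 3 lowest, and only the interval of replicate 2, from 311 to 372, was clear of the others. Has3 (chromosome 8, 106870242 to 106884566, plus strand), which makes shorter chains, had 9.55, 6.34 and 10.7 normalized counts, resting on 11, 9 and 9 reads. Its 3 intervals overlapped, and the widest reached from 4.88 to 20.3, so a difference between replicates was not detectable at this depth.

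Divided by exonic length, which allows genes to be compared, the synthases summed to 127, 141 and 296 normalized counts per kb in replicates 1, 2 and 3. Has1 made up 51.2%, 42.4% and 82.4% of this sum, and Has2 47.6%, 56.9% and 17.0%. The ratio of Has1 to Has2 per kb was 1.07, 0.746 and 4.84, and the higher sum in replicate 3 came from Has1. In replicate 1 the counting intervals per kb overlapped, from 58.2 to 72.3 for Has1 and from 53.8 to 67.8 for Has2. At this length their order there was not resolved. In replicate 2 Has2 was higher at this length, with an interval from 73.3 to 87.8 against 54.0 to 66.2 for Has1. The intervals do not cover the choice of length. Has1 has 4518 exonic bases but 3541 in its longest transcript, while Has2 has 4237 by either measure. A shorter length raises Has1 per kb, so its order against Has2 in replicates 1 and 2 depends on this choice. Has3 contributed between 0.565% and 1.18%. Has2 shares 182 exonic bases with the antisense gene Has2os, which had 16.5, 12.7 and 11.9 normalized counts, and Has3 shares 352 with Chtf8 on the opposite strand, which had between 2407 and 2736. Whether counting used the strand is not given in the sources used here. Without strand, reads on these bases could not be told apart.

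**Figure D1:**
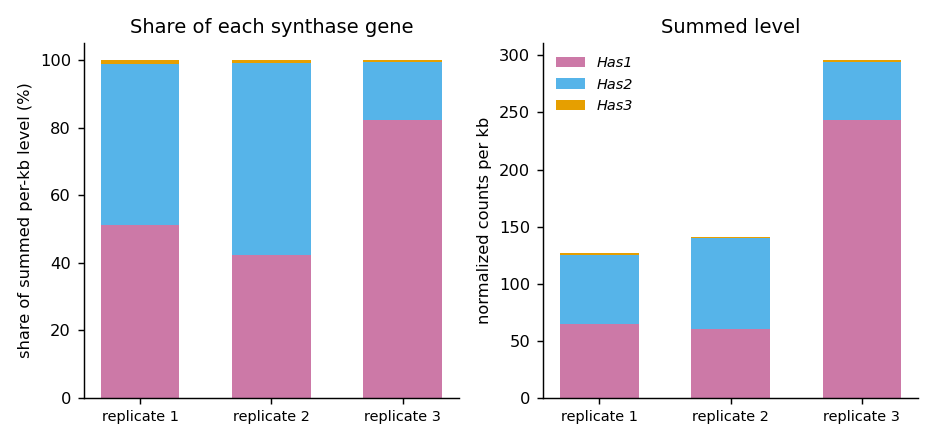
Stacked bars of the per-kb levels of Has1, Has2 and Has3 in each of the 3 replicates, as a share of their sum in percent (left) and in normalized counts per kb (right). Has1 took 82.4% of the sum in replicate 3 and 42.4% in replicate 2.

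Some leukocyte markers were highest in replicate 3, as Has1 was. Of 9 markers, 4 were highest in replicate 3, 3 in replicate 1 and 1 in replicate 2. Of all genes with a mean of at least 10, 27.8%, 31.9% and 40.3% were highest in replicates 3, 1 and 2. Only 3 of the 9 markers had such a mean. The summed level of all 9 markers was 168, 110 and 699 normalized counts in replicates 1, 2 and 3. Most of it came from Lyz2 with 123, 62.7 and 601, while Laptm5 had 1.74, 4.93 and 36.7. Cd68 was highest in replicate 2, with 22.6, 33.1 and 27.3, and Cd74 was highest in replicate 1, with 14.8, 5.64 and 5.93. Ptprc had 1.74, 0.705 and 1.19 and Cd3e had no reads. The part of such cells in the Has1 level was not tested. In bulk RNA a change in the number of cells of a type and a change in RNA per cell cannot be told apart.

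The precursors of hyaluronan, UDP-glucuronic acid and UDP-N-acetylglucosamine, are made by enzymes whose genes were all well expressed. All 7 genes of sugar nucleotide supply reached 10 normalized counts in each library, and 5 of the 7 were highest in replicate 2, where 40.3% of all 13154 genes with a mean of at least 10 were highest. Uap1, which makes UDP-N-acetylglucosamine, had the highest mean per kb, 1567 normalized counts per kb. Ugdh, which oxidises UDP-glucose to UDP-glucuronic acid, had 5398, 12029 and 8195 normalized counts, a 2.23-fold range. Ugp2, which supplies the UDP-glucose, had 2870, 5501 and 2668, a 2.06-fold range. For Gfpt2, an isoform of the entry enzyme of the hexosamine pathway, the values were 575, 1222 and 546, with replicate 2 more than 2-fold above both others. The remaining enzymes Gfpt1, Gnpnat1, Pgm3 and Uap1 had ranges between 1.07-fold and 1.72-fold. Has2, Ugdh, Ugp2 and Gfpt2 were each highest in replicate 2. Has1 had its lowest value there, but this was not resolved from its value in replicate 1.

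Among hyaluronidases, Hyal2 was the more abundant and the most even gene of the group. Hyal2 (chromosome 9, 107567945 to 107572779, plus strand), a membrane-anchored enzyme that cleaves long chains, had 1051, 1102 and 1087 normalized counts. Its mean was 1080 ± 26.4 (SD, n = 3), with a 1.05-fold range and overlapping counting intervals. The SD of its log2 values was 0.04, larger than in only 1.06% of all genes with a mean of at least 10. Hyal1 (chromosome 9, 107576927 to 107581710, plus strand), the lysosomal enzyme, had 50.4, 74.7 and 69.9 normalized counts, averaging 65.0 ± 12.9 (SD, n = 3). Per kb, Hyal2 was 23.9, 16.9 and 17.8 times Hyal1 in replicates 1, 2 and 3. Hyal1 shares 1920 exonic bases on the same strand with Nat6, which had 583, 457 and 488 normalized counts, so reads there could have been left out or assigned to Nat6. Taken per kb of the 1816 bases shared with no other gene, Hyal1 stayed at rank 8 of the 9 genes, and Hyal2 was 11.5, 8.14 and 8.57 times Hyal1.

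Other genes of hyaluronan breakdown were measured beside them. Of 10 in the table, 5 reached this level in every library, 4 (Hyal4, Spam1, Hyal5 and Hyal6) had no reads, and Hyal3 had at most 2.37 normalized counts. Cemip, which binds hyaluronan and drives its breakdown at the surface of skin fibroblasts, had 10906, 28256 and 13320 normalized counts, with replicate 2 more than 2-fold above both others. Per kb it stood 2.79, 6.90 and 3.30 times above Hyal2. Its relative Tmem2 was lower, with a mean of 883 ± 159 normalized counts (SD, n = 3). Hexa, a lysosomal hexosaminidase, had the highest mean of this list per kb, 2502 normalized counts per kb, with a range of 1.46-fold, and Gusb, a lysosomal glucuronidase, had a range of 1.52-fold.

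Cd44 was by far the highest of the 9 genes. Cd44 (chromosome 2, 102811141 to 102901665, minus strand) had 40677, 36683 and 50478 normalized counts, averaging 42613 ± 7099 (SD, n = 3), and took between 0.193% and 0.247% of all reads on genes. Its range was 1.38-fold, with replicate 3 highest. The annotation lists 9 transcripts of this gene, and gene-level counts do not separate the standard form from variant exons. Of the other hyaluronan receptors, Layn, which encodes layilin, had 1399, 1074 and 1049 normalized counts, and Cd44 stood 10.3, 12.1 and 17.1 times above it per kb. Tlr2, a receptor for microbial products that also responds to hyaluronan fragments, had the highest mean of this list per kb, 914. Its values were 2714, 979 and 4575 normalized counts, more than 2-fold below both others in replicate 2. Tlr4 had 233, 414 and 290 and Stab1 had between 38.0 and 55.6. The endocytic receptors Lyve1, with at most 10.4, and Stab2, with at most 1.19 normalized counts, were near or below the detection limit.

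Hmmr (chromosome 11, 40701395 to 40733422, minus strand) had 279, 636 and 207 normalized counts in replicates 1, 2 and 3, averaging 374 ± 229 (SD, n = 3), and 243 without replicate 2. Replicate 2 was more than 2-fold above both others, as were 5.20% of all genes with a mean of at least 10. The counting interval of replicate 2, from 595 to 678, lay clear of those of replicates 1 and 3, which ended at 311 and 241. Of the 11 genes of mitosis and the cell cycle set beside it, 10 were highest in replicate 2 and 9 lowest in replicate 3, against 40.3% and 28.6% of all genes with a mean of at least 10. A range over 2-fold was found for 9 of the 11, against 27.0% of those genes. Bub1b, a spindle checkpoint kinase, had 144, 557 and 201.5 normalized counts, and Bub1 had 135, 402 and 119. Top2a, which untangles chromosomes, had 1090, 2661 and 1159, and Kif11, a spindle motor, had 270, 649 and 218. These 4 genes were, like Hmmr, more than 2-fold above both others in replicate 2. Aurka, Tpx2, Plk1, Ccnb1 and Mki67 had ranges between 2.02-fold and 2.55-fold, Tpx2 with the highest mean of the list per kb, 262. Cdk1, with 1498, 1468 and 876, and Brca1, with 130, 150 and 115, had smaller ranges of 1.71-fold and 1.31-fold. Over the list the median log2 difference of replicate 2 from the mean of the others was 1.07, against 0.02 over all 13154 genes. A CCAAT match was present in the promoters of all 10 of these genes that had an entry, and at least 2 in 6 of them. For each gene the promoter with the most matches was taken. Over all promoters, each counted singly, 10.1% had at least 2, so the units differ. Whether more cells were dividing in that culture was not tested.

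**Figure D2:**
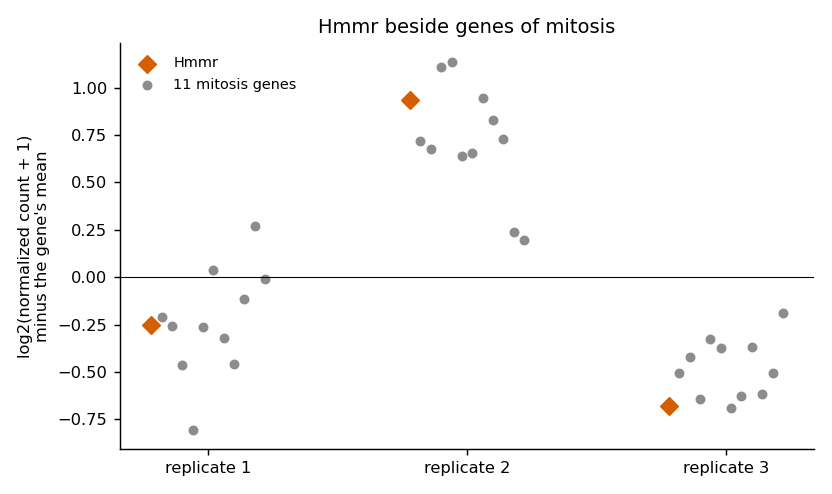
Centred log2(normalized count + 1) values of Hmmr (diamonds) and 11 genes of mitosis and the cell cycle (circles) in the 3 replicates, each minus the gene's own mean over the replicates. In replicate 2 all 12 genes lie above 0, and in replicate 3 all lie below it.

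The matrix binders Tnfaip6 and Vcan differed in level and in the place of replicate 2, the lowest library for Tnfaip6 and the highest for Vcan. Tnfaip6 (chromosome 2, 52038009 to 52056686, plus strand) had 160, 39.5 and 206 normalized counts, averaging 135 ± 86.1 (SD, n = 3). Its range of 5.23-fold was the widest of the 9 genes. Replicate 2, with an interval from 29.8 to 51.2, was more than 2-fold below both others, as were 4.87% of all genes with a mean of at least 10. Vcan (chromosome 13, 89655312 to 89742509, minus strand) had 5457, 8588 and 6306 normalized counts, averaging 6783 ± 1619 (SD, n = 3), with replicate 2 highest. Per kb, Vcan was 4.04, 25.7 and 3.62 times Tnfaip6 in replicates 1, 2 and 3.

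Of 17 other genes listed for hyaluronan binding, 7 reached 10 normalized counts in all libraries. Of the 10 with a mean of at least 10, 8 had a range over 2-fold, against 27.0% of all such genes. At a mean of at least 100 that share of all genes was 16.7%. Of the 8, Acan, Hapln3, Hapln4 and Itih5 rested on at most 43 reads in a library. Ptx3, a pentraxin that cooperates with TSG-6 in cross-linking, had the highest level per kb of all hyaluronan genes measured here, 9705 normalized counts per kb on average. Its values were 37768, 18793 and 21528, a 2.01-fold range. Hapln1, which encodes a link protein that fixes proteoglycans on hyaluronan, had 618, 253 and 933, and the proteoglycan gene Bcan had 135, 19.7 and 104. Both were more than 2-fold below the others in replicate 2, and so were Acan, Hapln3 and Habp4. Acan had 4.34, 0 and 36.7, Hapln3 had 14.8, 3.52 and 23.7, and Habp4 had 842, 390 and 812 normalized counts. Hapln4 had 26.9, 15.5 and 36.7, and Itih5 had 18.2, 30.3 and 4.74. Among the heavy chains that TSG-6 transfers, Itih2 had 289, 185 and 245, while Itih1 had at most 2.61 and Itih3 at most 13.03 normalized counts. Ambp, which encodes the light chain bikunin, had no reads. All 7 tendon and cartilage markers summed to 26554, 1821 and 15631 normalized counts in replicates 1, 2 and 3. Most of this came from Col2a1 and Fmod, the latter with 9346, 762 and 10075, while Sox9 and Tnmd had no such drop in replicate 2. The part of these 7 markers in the lower Tnfaip6 level was not tested.

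**Figure D3:**
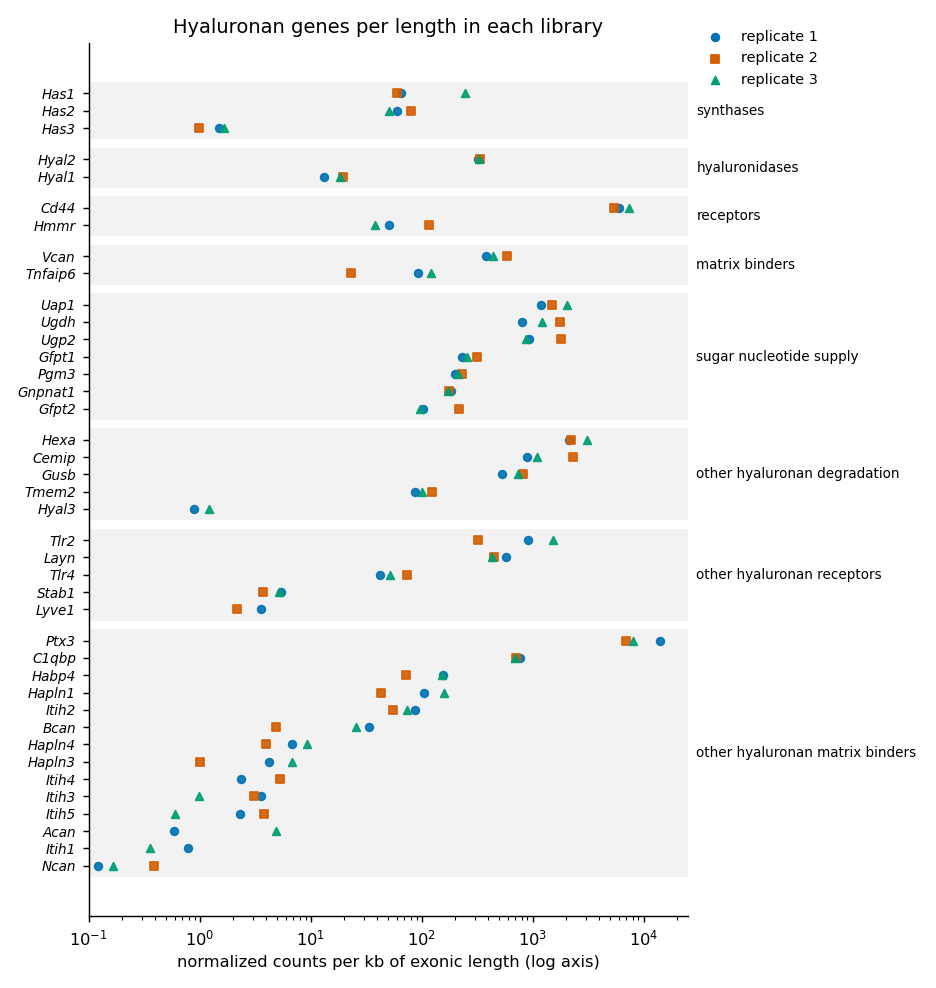
Normalized counts per kb of exonic length (log axis) of the 9 genes and of other hyaluronan genes with a mean of at least 1 normalized count, 1 point for each of the 3 replicates, grouped by role. Ptx3 (mean 9705) and Cd44 (6289) lie highest, followed by Hexa, Uap1 and Cemip, and points at 0 are not drawn.

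By mean level per kb, the 9 genes stood in the order Cd44, Vcan, Hyal2, Has1, Tnfaip6, Hmmr, Has2, Hyal1 and Has3. Cd44 had 6289 ± 1048 normalized counts per kb (SD, n = 3), 13.4 times Vcan with 469 ± 112. Hyal2 followed with 328 ± 8.01, Has1 with 123 ± 105, Tnfaip6 with 79.0 ± 50.3, Hmmr with 68.8 ± 42.2 and Has2 with 63.7 ± 15.2. Hyal1 had 17.2 ± 3.41 and Has3 had 1.39 ± 0.35. The upper 3 and the lower 2 places were the same in every replicate, and the ranges of neighbours there did not overlap. The ranges of neighbours overlapped among the 4 genes from Has1 to Has2. Tnfaip6 was at rank 4 in replicate 1 and rank 7 in replicate 2, and Hmmr was at rank 4 in replicate 2 and rank 7 in the others.

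**Figure D4:**
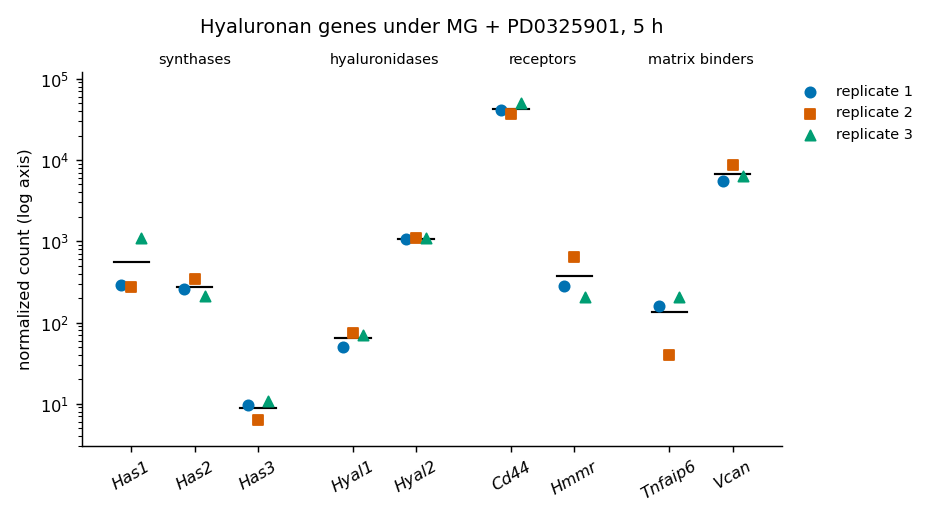
Normalized counts (log axis) of the 9 hyaluronan genes, grouped by role, with 1 point for each of the 3 replicates and a line at their mean. Has1 is set apart by replicate 3 (1101), and Hmmr (636) and Tnfaip6 (39.5) by replicate 2.

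The spread between replicates was set beside that of all genes. A level of 10 normalized counts was reached in each library by 8 of the 9 genes, Has3 being the exception. Of these 8, 3 (Has1, Hmmr and Tnfaip6) differed more than 2-fold between their highest and lowest replicate, and this held for 27.0% of all 13154 genes with a mean of at least 10. Has1 was more than 2-fold above both others in replicate 3, where this held for 1.28% of all genes. On the scale of log2(normalized count + 1), the SD had a median of 0.34 over the 8 genes and of 0.32 over all 13154. Single genes lay at both ends, Tnfaip6 with 1.27 at percentile 95.5, Has1 with 1.13 at 94.0 and Hmmr with 0.83 at 88.3, against Cd44 with 0.23 at 34.0 and Hyal2 at 1.06. Has2, Vcan and Hyal1 lay near the middle, at percentiles 53.3, 52.6 and 46.8. Without replicate 2 the range was 1.34-fold for Hmmr and 1.29-fold for Tnfaip6, and without replicate 3 that of Has1 was 1.08-fold.

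**Figure D5:**
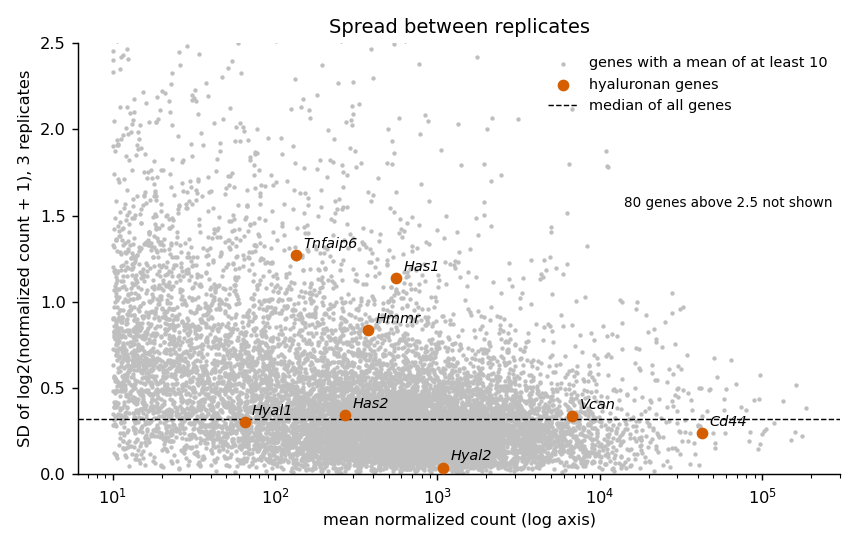
SD of log2(normalized count + 1) over the 3 replicates against the mean normalized count (log axis) for genes with a mean of at least 10 (grey) and 8 hyaluronan genes (orange), with a dashed line at the median of all genes. Tnfaip6, Has1 and Hmmr lie above the line and Hyal2 near 0, and 80 genes above 2.5 are not shown.

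Genes with the most similar pattern over the 3 libraries were sought among the 9983 genes that averaged 100 or more normalized counts, by the Euclidean distance of centred log2 values. With 3 libraries this only describes these cultures. For Has1, 4 genes lay within a distance of 0.25, the nearest being Dock8 (0.118), Lmo7 (0.164) and Abcb1a (0.180). Dock8 had 65.1, 59.2 and 222 normalized counts. For Tnfaip6, 13 genes lay within 0.25, and the nearest were Adam8 (0.0985), Cpm (0.100) and Gpr126 (0.110). Adam8, a metalloproteinase gene, had 1574, 391 and 1857. For Hmmr, 87 genes lay within 0.25, with Arl5a (0.0291), Cenpe (0.0496) and Npas4 (0.0498) the nearest. Arl5a, the nearest, had 1928, 4280 and 1401, and Cenpe, a kinetochore motor of mitosis, had 307, 726 and 226. The other 5 genes had common patterns, with 936 genes within this distance of Has2, 1350 of Vcan, 1379 of Hyal1, 1464 of Cd44 and 2702 of Hyal2. Their nearest genes were Zfp518b, Pdik1l and Samd14 for Has2, Sbno1, Ddx26b and Zc3h7b for Vcan, and Anapc2, Arhgef12 and Dhx38 for Hyal1. For Cd44 they were Rgp1, Zfp653 and Eif3i, and for Hyal2 Ndrg4, Efemp2 and Gsk3b.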

How the data were processed

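RNA-seq of 3 libraries, replicates of MG + PD0325901 at 5 h, was used. Per the labels and methods, the authors aligned single-end reads of stranded mRNA libraries to mm10 with TopHat2 2.0.13, counted unique reads per gene with HTSeq 0.5.3p3 and normalized with DESeq. The gene annotation and the strand setting are not given in the sources used here. The deposited signal consists of normalized counts, and 3 further columns of per-sample values matched no sample and were not used. All values (100%) were whole multiples of 1 read within 0.05 read, so reads were recovered by division. A count model was not fitted, as there was 1 condition. Rows named by dates (27) held 0.231% of reads.

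Means, SDs and log2 values with a pseudocount of 1 were computed in Python 3.11.15 (numpy 2.4.6, scipy 1.17.1, pandas 2.3.3), and TMM factors with edgeR 4.0.16 in R 4.3.3. Ranges over 2-fold were counted where a gene averaged 10 or more. The counting was run on simulated libraries with Poisson counting error and some genes raised in replicate 2. These had no spread between cultures, so that run checks the counting only and not how often cultures differ by 2-fold. Positions and exonic lengths came from GENCODE M21 (GRCm38), the build of mm10, with Tmem2 and Nat6 matched to their present names. The 9 genes and the lists were chosen with earlier results of these data known. Named genes were the 9 genes, in each list the highest per kb and those with a range over 2-fold, the 3 nearest in pattern, and genes overlapping one of the 9, and further list genes were named for context. The values of 1 list gene are not reported here. Alternatives were other pseudocounts, minimums, folds, scalings and lengths, and each replicate left out. The length shared with no other gene, used for the order per kb and for Hyal2 against Hyal1, was added after the data were seen.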

Additional observations from a re-analysis of the deposited data

How the results depend on the processing

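Means of the 9 genes moved by less than 1 SD between replicates in all 18 recomputations with equal totals or TMM scaling. That limit was wide for Has1, with an SD of 85.2% of its mean, and narrow for Hyal2, with 2.44%. For genes with a wide limit this check could hardly fail. No paired analysis was possible because the labels give a single condition. The count of all genes with a range over 2-fold was 3551, but 10231 without a minimum, 1672 at a mean of at least 100 and 6890 at 1.5-fold, and from 1251 (replicate 2 left out) to 2579 when single replicates were left out. Of the hyaluronan genes, 3 passed 2-fold and 5 passed 1.5-fold, and between 1 and 3 passed with each replicate left out, 1 being Has1 without replicate 2. The median SD of the 8 genes ranged from 0.22 to 0.40 when single replicates were left out. The first 3 changes follow from the limits used, and fewer libraries give smaller ranges by construction. Of the 8 neighbouring pairs per kb, 5 kept their order in every library, and 7 without replicate 2. With the longest transcript as length, Hmmr and Tnfaip6 changed places. Without replicate 3, Has1 was at rank 6 of the 9 genes in place of rank 4. Depth limited Has3, with at most 11 reads.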

Other observations

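Genes around CD44 and versican were read in the same libraries. Of 8 genes that link CD44 to the cytoskeleton or shed it, all reached 10 normalized counts in each library, and Msn, which encodes moesin, had the highest mean per kb, 4723 normalized counts per kb. Ezr, which encodes ezrin, had 398, 323 and 965 normalized counts in replicates 1, 2 and 3, more than 2-fold above both others in replicate 3, where Has1 was also highest. Ank3, an ankyrin, had 470, 603 and 209, more than 2-fold below both others in replicate 3. Rdx had a range of 1.74-fold and Nf2 of 1.35-fold. Mmp14, a membrane protease that cleaves CD44, had 13724, 15866 and 20812, and the sheddases Adam10 and Adam17 had means of 1879 ± 268 and 978 ± 132 (SD, n = 3).

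Of 6 ADAMTS proteases that cleave versican, 3 reached this level in each library. Adamts1 had the highest mean per kb, 416, with 1922, 2267 and 2427 normalized counts. Adamts4 had 346, 880 and 373, with replicate 2 more than 2-fold above both others, the library where Vcan was also highest. Adamts9 was low and showed the same order with 9.55, 25.4 and 10.7. Adamts5 had 1382, 1482 and 645, more than 2-fold below both others in replicate 3. Adamts15 and Adamts20 had at most 2.82 and 5.21 normalized counts. The remaining marker with a range over 2-fold, Krt10, had between 32.002 and 80.8 normalized counts. Hyaluronan itself, and the activity of these enzymes, were not measured.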
